A study of Mus musculus with 9 samples.

Results

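The genes described here are 10 that act in presenting antigen on MHC class I molecules: H2-K1, H2-D1, B2m, Tap1, Tap2, Tapbp, Psmb8, Psmb9, Psmb10 and Nlrc5. They were taken by symbol from the 50813 genes of the deposited count table, and each symbol matched 1 gene. RNA-seq was done on cultured Lewis lung carcinoma (LLC) cells, a mouse lung tumour line that arose in a C57BL mouse. The lines were luciferase-expressing LLC cells that kept CD47 (WT) and 2 CD47 knockout clones, E3 and E5, made by electroporating Cas9 with a guide RNA against Cd47, and the series' design text calls the WT cells clonal as well. Each line had 3 libraries. The study's methods call the replicates biologically independent. Each knockout is a single clone, so an effect of losing CD47 and a property of the clone cannot be told apart, and the replicates measure the spread within a line. WT libraries held between 47574047 and 49621282 counts in all, with a median of 47756318. The range was 44257404 to 48672040 for clone E3, around a median of 46747086, and 47378308 to 55095219 for clone E5, around a median of 47436854.

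MHC class I molecules display peptides from inside the cell to CD8 T cells, and NK cells respond to cells that lack them. Proteins are cut to peptides by the proteasome, whose catalytic subunits can be exchanged for Psmb8, Psmb9 and Psmb10 to form the immunoproteasome. The transporter Tap1/Tap2 carries the peptides into the endoplasmic reticulum, where tapasin (Tapbp) helps to load them onto a heavy chain (H2-K1 or H2-D1) paired with beta-2 microglobulin (B2m). Nlrc5 is a transcriptional coactivator of class I genes, and interferons raise the expression of most of this set. Low class I expression is a known route by which tumour cells escape T cells, and LLC cells are known for low class I at their surface.

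The promoters of H2-K1 and H2-D1 are shown because these genes encode the heavy chains and moved by different amounts. RefSeq sequences (table on GRCm38.p6) were found for 8 of the 10 genes, and those of Tap2 and Nlrc5 were not in the table. The 250 bases before each start were searched on both strands for a core of the interferon-stimulated response element (GAANNGAAA), the gamma-activated site (TTCNNNGAA), an NF-kB site (GGGATTCCC), the CCAAT box (CCAAT) and the CRE-like X2 core (TGACG). Of 32851 windows of that length in the table, 6.31% held the first, 7.02% the second, 0.301% the NF-kB site, 33.8% the CCAAT box and 17.8% the X2 core. Capitals in the printed sequences mark matches to these motifs, on either strand, and matches did not overlap. The first line is the 130 bases before the first of the RefSeq starts of H2-K1, found by exact match at chr17:34219322-34219451 of GRCm39 on the minus strand, next to the deposited start of the gene. The other lines compare the stretch from the NF-kB site to the interferon-response core, at chr17:34219403-34219431 on the minus strand for H2-K1 and at chr17:35481900-35481928 on the plus strand for H2-D1. The H2-D1 stretch lies before the RefSeq start but within an exon of H2-D1 in GENCODE vM39.
H2-K1 promoter: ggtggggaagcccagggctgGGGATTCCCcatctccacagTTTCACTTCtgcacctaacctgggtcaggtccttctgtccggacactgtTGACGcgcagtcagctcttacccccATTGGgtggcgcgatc
H2-K1 stretch: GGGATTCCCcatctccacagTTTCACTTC
H2-D1 stretch: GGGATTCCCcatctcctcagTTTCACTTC

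The stretches were identical at 28 of 29 bases, and the difference was A17T, counted from 1 at the 5′ end with the H2-K1 base first. Each stretch was cut from a motif match to a motif match, so the bases that these motifs fix were identical in advance. Both genes also held a CCAAT box and an X2 core in the 250 bases. Of the other genes, B2m, Tap1 and Psmb9 held an X2 core and a CCAAT box, Tapbp held CCAAT boxes, Psmb8 held a gamma-activated site, and Psmb10 held none of the letters searched. A match is a description of the letters, and binding was not measured.

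Cd47, the edited gene, was measured first as a check of the labels. Its level was 187, 179 and 182 CPM (counts scaled to library size by the TMM method) in WT replicates 1 to 3, 47.4, 36.7 and 49.6 CPM in clone E3 and 15.5, 18.6 and 18.1 CPM in clone E5. The libraries of each clone lay below every WT library, and those of E5 lay below those of E3. The log2 fold change against WT was -2.03 ± 0.13 (SE, n = 3 per group, FDR = 4.9e-06) in clone E3 and -3.39 ± 0.14 (FDR = 1.07e-07) in clone E5, so that transcript remained in both clones. In bulk RNA, fewer expressing cells and less RNA per cell cannot be told apart, here or for the other genes. Here and below, FDR is the p-value of edgeR's quasi-likelihood test after Benjamini-Hochberg adjustment over the 14593 genes that passed a filter on low counts.

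Replicate 3 of clone E3 stood apart from the other libraries. The chi-square per degree of freedom between replicates was 192 and 232 for the pairs that include it, 30.5 for the other pair of clone E3, and 4.82 to 39.1 within WT and clone E5. The tested genes were divided into 4 bins by total exon length. In this library the 3635 genes with the shortest exons lay at a median log2 difference of 0.39 from the mean of the other replicates of clone E3, and the 3635 with the longest at -0.40. The same medians lay between -0.03 and 0.05 in the WT and E5 libraries. Of the 10 genes, 4 (H2-K1, H2-D1, B2m and Psmb10) belong to the bin of shortest exons, and in replicate 3 they lay 0.53 to 0.76 above the mean of replicates 1 and 2 on the log2 scale. Of the genes with longer exons, Psmb9 lay 0.94 above that mean, Tap2 0.62, Psmb8 0.49 and Tapbp 0.32, while Tap1 lay at -0.03 and Nlrc5 at -1.21. The part of this library in the results was not tested beyond leaving it out. All 9 libraries shared an estimate of the spread, so this library also entered the errors of the comparison between clone E5 and WT. Without it the SE of that comparison went from 0.144 to 0.069 for H2-D1, and from 0.600 to 0.605 for Psmb8.

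All 10 genes passed the filter, but Psmb8 and Psmb9 passed through clone E3, with 3 libraries of that clone at or above the filter's 0.21 CPM and too few of the others. In clone E3, 4 genes were higher than in WT (Tap1, Tapbp, Psmb8 and Psmb9), where 15.7% of all tested genes were higher, and 2 were lower (H2-K1 and Nlrc5), where 14.7% were lower. Psmb8 and Psmb9, among the higher ones, are the genes that entered the test through their level in that clone. In clone E5, 1 gene was higher than in WT (Tapbp), where 8.96% of tested genes were higher, and 3 were lower (H2-K1, H2-D1 and Nlrc5), where 11.7% were lower. The median log2 fold change of the 10 genes was 0.42 in clone E3 and -0.52 in clone E5, beside 0.01 and -0.00 over all tested genes. Psmb8 and Psmb9 are included in these medians of the 10 genes. Both comparisons use the same WT libraries.

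The clones were compared with each other directly. In clone E5, 7 of the 10 genes were lower than in clone E3 (H2-K1, B2m, Tap2, Tapbp, Psmb8, Psmb9 and Nlrc5), where 17.2% of tested genes were lower. Psmb8 and Psmb9 entered this test through their level in clone E3, so their calls are a description, and 5 of the 7 are free of that condition. None was higher with edgeR at an FDR under 0.05, 0 at an unadjusted p under 0.05 and 0 with DESeq2, where 14.7% of tested genes were higher. The median log2 fold change between the clones was -0.81, against -0.01 for all tested genes. This median includes Psmb8 and Psmb9. Without replicate 3 of clone E3 the numbers of differing genes were 8 in clone E3 against WT (5 higher, 3 lower), 7 in clone E5 against WT (2 higher, 5 lower) and 8 between the clones (0 higher, 8 lower), and the numbers over all tested genes rose from 4445 to 6423, from 3012 to 6246 and from 4661 to 6555. In that fit 21.8% of all tested genes were higher and 21.5% lower for E3 against WT, 20.8% and 21.2% for E5 against WT, and 22.4% and 21.7% for E5 against E3. Without WT replicate 2 the first of these was 2875. Without any WT replicate, or replicate 1 or 2 of clone E5, the second was 1767 to 1953. The median of the 10 genes without replicate 3 of clone E3 was 0.24 in clone E3, -0.52 in clone E5 and -0.60 between the clones.

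**Figure D1:**
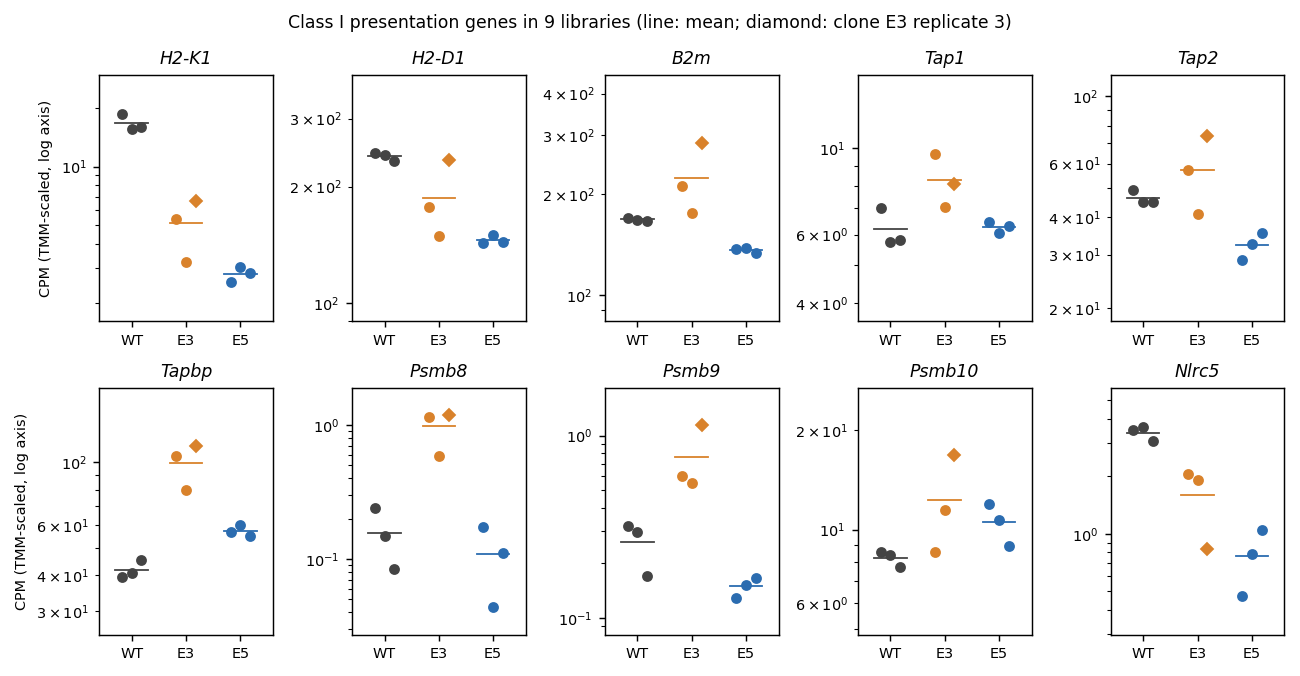
Level of each of the 10 class I presentation genes in CPM (TMM-scaled, log axis with its own range per gene) in the 3 libraries of WT, clone E3 and clone E5. Lines are group means and the diamond is replicate 3 of clone E3. H2-K1 and Nlrc5 are highest in WT, while Tapbp, Psmb8 and Psmb9 are highest in clone E3.

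H2-K1 (ENSMUSG00000061232, chr17:34214991-34219321, minus strand) encodes the K heavy chain and was lower in both clones. Its level was 18.5, 15.5 and 16.0 CPM in WT, 5.38, 3.25 and 6.68 CPM in clone E3 and 2.56, 3.06 and 2.85 CPM in clone E5. None of the 3 groups overlapped another. The level was 3.27-fold lower in clone E3 (log2 fold change -1.71 ± 0.22 SE, FDR = 0.000327) and 5.91-fold lower in clone E5 (-2.56 ± 0.23, FDR = 2.85e-05). These calls held in 15 alternative analyses of the gene itself, with log2 fold changes from -1.95 to -1.47 in clone E3 and from -2.62 to -2.48 in clone E5. Clone E5 was lower than clone E3 by a log2 fold change of -0.85 ± 0.23 (FDR = 0.0162). That last call was lost without replicate 1 (FDR = 0.0582) or replicate 3 (FDR = 0.0522) of clone E5 and with the clones fitted alone (FDR = 0.0501), and its FDR over the 15 alternatives of the gene itself ran from 0.000662 to 0.0582. Without replicate 3 of clone E3 it was 0.0213. The sum of all heavy chain rows, given below, had an FDR of 0.0827, but that sum was mostly H2-D1.

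H2-D1 (ENSMUSG00000073411, chr17:35481706-35486475, plus strand) encodes the D heavy chain and changed less. It stood at 244, 241 and 234 CPM in WT, 178, 149 and 234 CPM in clone E3 and 143, 150 and 144 CPM in clone E5. All E5 libraries lay below all WT libraries, while replicate 3 of clone E3 reached the WT range. The level was 1.64-fold lower in clone E5 (log2 fold change -0.72 ± 0.14, FDR = 0.00578). In clone E3 the log2 fold change was -0.36 ± 0.14 (FDR = 0.084), and without replicate 3 it was -0.56 (FDR = 0.000141), in a range of FDR from 0.000141 to 0.247 over the 15 alternatives of the gene itself, and 0.258 with all heavy chain rows summed. The clones differed from each other by -0.36 ± 0.14 (FDR = 0.0821), by -0.50 (FDR = 0.0111) without replicate 2 of clone E3 and by -0.15 (FDR = 0.126) without its replicate 3. Over the alternatives that FDR ran from 0.0111 to 0.187.

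Per kb of exon, the level of H2-K1 was 5.24 CPM in WT, 1.6 CPM in clone E3 and 0.886 CPM in clone E5, and that of H2-D1 was 80.0, 62.4 and 48.7 CPM. Of the sum of both on this scale, H2-K1 made up 5.70% to 6.67% in WT libraries, 2.02% to 2.77% in clone E3 and 1.65% to 1.88% in clone E5. The share did not overlap between the 3 lines. H2-D1 was thus the more abundant heavy chain transcript in every library. Reads of near-identical class I genes may be split between genes or dropped, since the way reads were assigned to genes is not given in the sources used here. Of the 50-base stretches of their main transcripts, 8.79% in H2-K1 and 14.2% in H2-D1 also occurred in transcripts of another gene, most often H2-D1 and H2-Q1. When the 21 class I heavy chain rows with H2-K, H2-D, H2-Q, H2-T or H2-M symbols were summed, the total was 287 to 301 CPM in WT, 198 to 312 CPM in clone E3 and 193 to 201 CPM in clone E5. The summed level had a log2 fold change of -0.23 ± 0.14 (FDR = 0.258) in clone E3 and -0.58 ± 0.14 (FDR = 0.0161) in clone E5. Between the clones it was -0.35 ± 0.14 (FDR = 0.0827). In WT, H2-D1 at 234 to 244 CPM made up most of this sum, and H2-K1 was at 15.5 to 18.5 CPM. The sum thus follows H2-D1 and could not show whether the calls of H2-K1 held.

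B2m (ENSMUSG00000060802, chr2:121978167-121983564, plus strand), the light chain shared by all class I molecules, was higher in clone E3 than in clone E5. Its level was 170, 167 and 167 CPM in WT, 212, 176 and 285 CPM in clone E3 and 137, 138 and 133 CPM in clone E5. The 3 groups did not overlap, with WT between the clones. The difference between the clones was -0.72 ± 0.15 on the log2 scale (FDR = 0.00479), and -0.50 (FDR = 0.000239) without replicate 3 of clone E3. Against WT, B2m stood at 0.42 ± 0.15 on the log2 scale in clone E3 (FDR = 0.059) and -0.30 ± 0.15 in clone E5 (FDR = 0.185). Without replicate 3 of clone E3 these became 0.20 (FDR = 0.0495) and -0.30 (FDR = 0.00436), and without replicate 2 the value of clone E3 was 0.56 (FDR = 0.00766). DESeq2 (adjusted p = 0.0367) and upper-quartile scaling (FDR = 0.0477) also called B2m higher in clone E3. Over the alternatives the FDR ran from 0.00766 to 0.152 in clone E3 and from 0.000518 to 0.331 in clone E5.

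Tapbp (ENSMUSG00000024308, chr17:34134873-34148266, plus strand), the loading chaperone tapasin, was higher in both clones and more so in E3. Its level was 39.6, 40.8 and 45.5 CPM in WT, 105, 79.7 and 114 CPM in clone E3 and 57.1, 59.9 and 55.1 CPM in clone E5. The 3 groups did not overlap. The level was 2.38-fold that of WT in clone E3 (log2 fold change 1.25 ± 0.13, FDR = 0.000111), a call kept in all 15 alternatives. In clone E5 it was 1.37-fold (0.45 ± 0.13, FDR = 0.0347). The latter call was lost when any WT or any E5 library was left out (FDR from 0.0607 to 0.127), under upper-quartile scaling (0.0625) and with the replicate number as a block (0.0566), and stood at an FDR of 0.00214 without replicate 3 of clone E3, within a range from 0.000205 to 0.127. Clone E5 lay below clone E3 by -0.80 ± 0.13 (FDR = 0.00121). Part of Tapbp is shared with neighbours in the deposited coordinates, 3422 bases with Zbtb22 on the same strand and 1209 bases with the non-coding Gm19412 on the other strand, so its counts are uncertain to that extent.

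Tap1 (ENSMUSG00000037321, chr17:34406527-34416199, plus strand) and Tap2 (ENSMUSG00000024339, chr17:34422501-34435295, plus strand) form the peptide transporter. Tap1 stood at 7.03, 5.74 and 5.80 CPM in WT, 9.66, 7.08 and 8.07 CPM in clone E3 and 6.46, 6.05 and 6.32 CPM in clone E5. All E3 libraries lay above all others, and WT and clone E5 overlapped. Against WT, Tap1 had a log2 fold change of 0.42 ± 0.14 in clone E3 (FDR = 0.0496) and 0.02 ± 0.14 in clone E5 (FDR = 0.945, 95% interval -0.30 to 0.34). The call in clone E3 was lost without WT replicate 2 (FDR = 0.177) or 3 (0.164), without replicate 1 of clone E3 (0.155) and without any replicate of clone E5 (0.0714 to 0.0780), as well as without the filter (0.0857) or with WT and E3 fitted alone (0.102). It was kept in 7 of 15 alternatives, among them the fit without replicate 3 of clone E3 (0.0304). Between the clones the difference was -0.40 ± 0.14 (FDR = 0.0571), and its FDR was 0.0239 without replicate 2 and 0.0386 without replicate 3 of clone E3, 0.0356 with DESeq2 and 0.0326 under upper-quartile scaling, in a range from 0.0239 to 0.171.

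Tap2 was at 49.1, 44.8 and 44.7 CPM in WT, 57.0, 40.8 and 73.9 CPM in clone E3 and 28.8, 32.5 and 35.4 CPM in clone E5. Clone E5 lay below all other libraries, while clone E3 overlapped with WT. The clones differed by a log2 fold change of -0.83 ± 0.18 (FDR = 0.00633), and by -0.59 without replicate 3 of clone E3 (FDR = 0.00207). Against WT the value was -0.52 ± 0.18 in clone E5 (FDR = 0.0693). This FDR was 0.0127 without replicate 2 and 0.00299 without replicate 3 of clone E3, 0.0364 with DESeq2 and 0.025 without the filter, and ran from 0.000322 to 0.210 over the alternatives. In clone E3 the value was 0.31 ± 0.18 (FDR = 0.229), or 0.50 without its replicate 2 (FDR = 0.0187) and 0.08 without its replicate 3 (FDR = 0.641), which are the ends of its range. Per kb of exon, Tap1 was at 1.03 to 1.38 CPM and Tap2 at 6.76 to 12.0 CPM in the group means, so that Tap1 was the lower of the pair in each line.

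**Figure D2:**
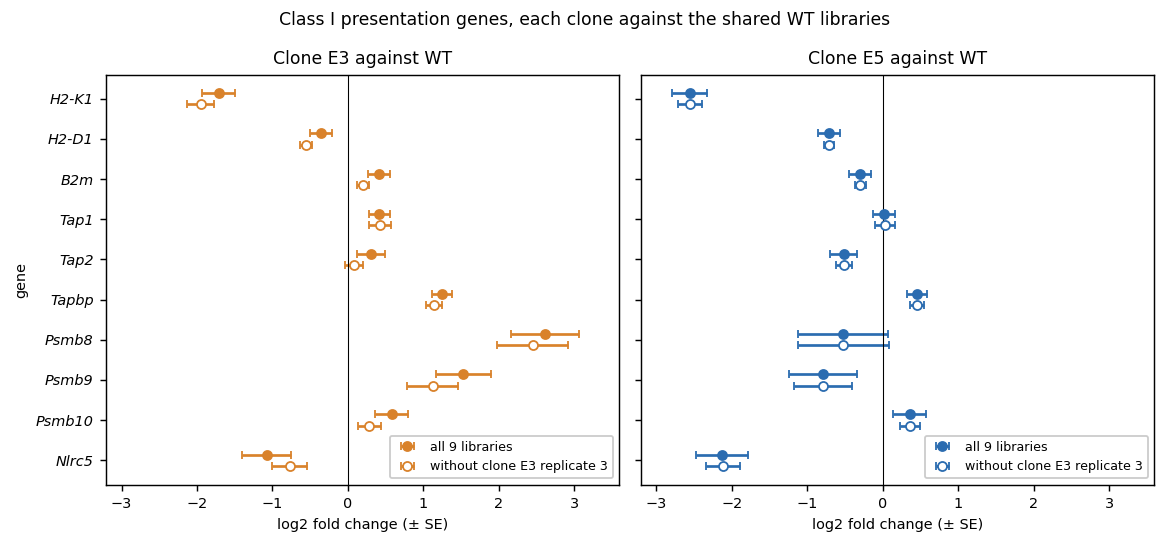
Log2 fold change of each gene in clone E3 (left) and clone E5 (right) against the shared WT libraries, with bars of 1 SE. Filled points use all 9 libraries and open points leave out replicate 3 of clone E3. H2-K1 lies at -1.71 and -2.56 with all libraries, and Psmb8 at 2.61 in clone E3 and -0.53 in clone E5.

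The immunoproteasome subunits Psmb8 (ENSMUSG00000024338, chr17:34416695-34420428, plus strand) and Psmb9 (ENSMUSG00000096727, chr17:34400961-34406738, minus strand) were barely expressed in WT and clone E5 and still low in clone E3. Psmb8 had 12, 7 and 4 counts in WT, 58, 28 and 54 counts in clone E3 and 8, 2 and 6 counts in clone E5, which is 0.240, 0.147 and 0.0844 CPM, 1.16, 0.592 and 1.19 CPM and 0.172, 0.0434 and 0.111 CPM. All E3 libraries lay above all others. The log2 fold change against WT was 2.61 ± 0.45 in clone E3 (FDR = 0.00177) and -0.53 ± 0.60 in clone E5 (FDR = 0.598, 95% interval -1.86 to 0.80). The clones differed by -3.14 ± 0.48 (FDR = 0.000765). The value in clone E5 was -0.09 without WT replicate 1, -0.82 without WT replicate 3, -0.98 without replicate 1 of clone E5 and -0.18 without its replicate 2, so at this depth a moderate difference between clone E5 and WT was not detectable.

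Psmb9 had 16, 14 and 8 counts in WT, 30, 26 and 52 counts in clone E3 and 6, 7 and 9 counts in clone E5, or 0.321, 0.294 and 0.169 CPM, 0.600, 0.549 and 1.14 CPM and 0.129, 0.152 and 0.166 CPM. The 3 groups did not overlap, and clone E3 was highest. The log2 fold change against WT was 1.53 ± 0.37 in clone E3 (FDR = 0.01) and -0.80 ± 0.45 in clone E5 (FDR = 0.25, 95% interval -1.79 to 0.20), and the clones differed by -2.33 ± 0.40 (FDR = 0.00154). Both subunits were admitted to the test by their level in clone E3, so that their calls towards that clone are a description of it. Psmb9 and Tap1 overlap by 212 bases on opposite strands. The library kit keeps strand but the strand setting of the counting is not given, so the few counts of Psmb9 are uncertain there.

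Psmb10 (ENSMUSG00000031897, chr8:106662367-106665076, minus strand), the third exchangeable subunit, was the most abundant of them in every line. It stood at 8.55, 8.37 and 7.68 CPM in WT, 8.54, 11.5 and 16.8 CPM in clone E3 and 11.9, 10.7 and 8.89 CPM in clone E5. The E5 libraries lay above the WT libraries, and clone E3 overlapped with both. Against WT, Psmb10 stood at 0.58 ± 0.22 on the log2 scale in clone E3 (FDR = 0.0669) and 0.36 ± 0.22 in clone E5 (FDR = 0.287), and between the clones it was -0.22 ± 0.22 (FDR = 0.459). Without replicate 3 of clone E3 these were 0.28 (FDR = 0.15), 0.36 (FDR = 0.0488) and 0.08 (FDR = 0.714), the last with the opposite sign. Without replicate 1 of clone E3 the first was 0.78 (FDR = 0.013), its FDR was 0.037 with DESeq2 and 0.0315 without the filter, and the FDR over the alternatives ran from 0.013 to 0.181 for clone E3 and from 0.0242 to 0.583 for clone E5.

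The subunits were set beside the constitutive catalytic subunits that they replace, per kb of exon. Psmb8 was at 0.05% to 0.130% of Psmb5 in WT libraries, 0.333% to 0.759% in clone E3 and 0.0242% to 0.0979% in clone E5. Psmb9 was at 0.0992% to 0.170% of Psmb6 in WT, 0.319% to 0.421% in clone E3 and 0.0705% to 0.0964% in clone E5. Psmb10 was at 15.7% to 18.4% of Psmb7 in WT, 17.3% to 21.1% in clone E3 and 18.5% to 21.3% in clone E5. For Psmb8 and Psmb9 the ratio in each E3 library exceeded that of every other library, replicate 3 included, yet stayed under 1%. Both genes passed the filter through their level in clone E3, so this is a description of that clone.

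Nlrc5 (ENSMUSG00000074151, chr8:95160984-95253900, plus strand) was lower in both clones. Its level was 3.49, 3.64 and 3.06 CPM in WT, 2.06, 1.92 and 0.836 CPM in clone E3 and 0.474, 0.781 and 1.05 CPM in clone E5. All libraries of both clones lay below all WT libraries, and the clones overlapped with each other. The level was 4.37-fold lower in clone E5 (log2 fold change -2.13 ± 0.35, FDR = 0.00163), a call kept in all 15 alternatives, and 2.11-fold lower in clone E3 (-1.07 ± 0.32, FDR = 0.0289). In clone E3 the call was lost without any of the WT libraries (FDR from 0.0598 to 0.0905) and was kept without replicate 3 of clone E3 (-0.77, FDR = 0.0176). With the replicate number as a block its FDR was 0.0506, in a range from 0.00513 to 0.0905. Between the clones the difference was -1.05 ± 0.36 (FDR = 0.0447). It was lost without any WT library (FDR from 0.0648 to 0.0666), without replicate 1 or 2 of clone E3 (0.139 and 0.102), without replicate 1 or 2 of clone E5 (0.141 and 0.110) and with the block (0.086). It was -1.35 without replicate 3 of clone E3 (FDR = 0.0012). With the clones fitted alone it was lost as well (FDR = 0.102), and the FDR over the alternatives ran from 0.0012 to 0.141.

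Other class I heavy chains and relatives were described from a list of 27 genes, of which 23 were in the table and 9 were tested. In clone E3, 5 were higher than in WT. With edgeR 0 were lower at an FDR under 0.05, where 14.7% of all tested genes were lower. At an unadjusted p under 0.05 the number was 0, and 0 with DESeq2. In clone E5, 2 were higher and 3 lower, and between the clones 6 were lower in E5. The higher genes were 55.6% of the tested list in clone E3 (15.7% of all tested genes) and 22.2% in clone E5 (8.96%), and the lower ones were 33.3% in clone E5 (11.7%) and 66.7% between the clones (17.2%). The list had a median log2 fold change of 0.72 in E3 and -0.52 in E5. Leaving out replicate 3 of clone E3, 5 were higher and 1 lower (H2-M3) in clone E3, 2 higher and 4 lower in clone E5, and between the clones 1 was higher and 6 lower. These are 11.1% to 66.7% of the list, beside 20.8% to 22.4% of all tested genes in each direction of that fit. Fcgrt, the neonatal Fc receptor gene, was lower in E5 than in E3 at -0.81 ± 0.24 (FDR = 0.0251), or -0.48 without that replicate. The nonclassical gene H2-T22 was higher in both clones, at 0.87 ± 0.12 in E3 (FDR = 0.000535) and 0.43 ± 0.12 in E5 (FDR = 0.0294), and H2-T10 was higher in clone E3, at 1.28 ± 0.31 (FDR = 0.0105). H2-T23, which encodes Qa-1, a ligand of NK cell receptors, was higher in clone E5 at 1.03 ± 0.26 (FDR = 0.0168).

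H2-Q4 was not detected in clone E5. Its level was 0.641, 0.883 and 0.908 CPM in WT and 1.6, 1.44 and 2.15 CPM in clone E3, with 0 counts in all 3 libraries of clone E5. Against a floor of 3 counts per library it was at least 13.1-fold lower in clone E5 than in WT and at least 28.0-fold lower than in clone E3, and clone E3 was above WT by 1.09 ± 0.25 (FDR = 0.0129). The median of the list in clone E5 was the same with H2-Q4 at that bound. The floor covers counting error alone. Mr1, which presents metabolites to MAIT cells, was 25.1, 16.8 and 17.9 CPM in clone E3, 12.6, 11.4 and 12.3 CPM in WT and 3.15, 3.54 and 4.57 CPM in clone E5. It was higher than WT in clone E3 (0.72 ± 0.17, FDR = 0.0108) and lower in clone E5 (-1.68 ± 0.19, FDR = 0.000125). Cd1d1, which presents lipids to NKT cells, had the same directions, at 1.09 ± 0.25 in E3 (FDR = 0.00792) and -1.09 ± 0.28 in E5 (FDR = 0.0198).

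The list of constitutive proteasome subunits held 14 genes. In clone E3, 0 were higher and 0 lower with edgeR at an FDR under 0.05, with 2 higher and 0 lower at an unadjusted p under 0.05 and 1 and 0 with DESeq2. Of all tested genes, 15.7% were higher and 14.7% lower there with edgeR at that FDR. In clone E5, Psma3 was the 1 higher gene (0.51 ± 0.13, FDR = 0.022), which is 7.14% of the list beside 8.96% of all tested genes. The catalytic subunits had log2 fold changes of 0.16 (Psmb5), 0.15 (Psmb6) and 0.35 (Psmb7) in clone E3 and -0.02, -0.03 and 0.12 in clone E5, none past the threshold. The values in clone E3 without its replicate 3 were -0.11, -0.13 and 0.11, the first and second with the opposite sign. The median of the list was 0.22 in clone E3 and 0.06 in clone E5. Without replicate 3 of clone E3 the first was 0.00, 1 subunit was lower in clone E3 than in WT, 4 were higher in clone E5 than in WT and 5 were higher in E5 than in E3. The shares of the list were 7.14%, 28.6% and 35.7%, where 21.5% of all tested genes were lower in the first comparison and 20.8% and 22.4% higher in the others. In that replicate the summed level of the list was 2497 CPM, against 1568 and 1752 CPM in the other replicates of the clone and 1548 to 1951 CPM in WT and clone E5.

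Of 9 proteasome activators and assembly factors, 1 was lower in clone E3 and 1 was higher and 1 lower in clone E5. Each is 11.1% of the list, beside 14.7% of all tested genes lower in clone E3 and 8.96% higher and 11.7% lower in clone E5. Psme3, the nuclear activator, was the lower gene in both, at -0.61 ± 0.10 in E3 (FDR = 0.00154) and -0.35 ± 0.10 in E5 (FDR = 0.0379). Psme4, which encodes the activator PA200, was at 0.66 ± 0.21 in clone E5 (FDR = 0.0488) and 0.60 ± 0.21 in clone E3 (FDR = 0.0532), and without replicate 3 of clone E3 the latter was 0.85 (FDR = 8.48e-06). The interferon-inducible activator pair Psme1 and Psme2 had log2 fold changes of 0.32 and 0.33 in clone E3 and -0.33 and -0.21 in clone E5, none past the threshold. Their values in E3 without its replicate 3 were 0.07 and -0.01, and Psme1 was lower in clone E5 than in WT (-0.32, FDR = 0.00277). The whole list then had 1 higher and 4 lower in clone E3, 2 higher and 2 lower in clone E5, and 4 higher and 1 lower between the clones, 11.1% to 44.4% of the list where 20.8% to 22.4% of all tested genes were called in each direction. With all libraries, Psme1 was lower in E5 than in E3 (-0.64 ± 0.16, FDR = 0.0123, or -0.40 without that replicate) and Psmg1, an assembly chaperone, was higher (0.46 ± 0.13, FDR = 0.0225), each 11.1% of the list, beside 17.2% and 14.7% of all tested genes.

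Of 14 genes for peptide loading and trimming, 3 were higher and 1 lower in clone E3, and 1 was higher in clone E5. These are 21.4% and 7.14% of the list in clone E3, beside 15.7% and 14.7% of all tested genes, and 7.14% in clone E5, beside 8.96%. The endoplasmic reticulum chaperone Calr stood at 1000, 1082 and 1280 CPM in clone E3, 588, 631 and 658 CPM in WT and 662, 558 and 456 CPM in clone E5. It was higher in clone E3 at 0.84 ± 0.15 (FDR = 0.00181), as was the disulfide isomerase Pdia3 of the loading complex at 0.61 ± 0.11 (FDR = 0.0028). The cytosolic aminopeptidase Npepps was higher in both clones, at 0.60 ± 0.10 in E3 (FDR = 0.00182) and 0.34 ± 0.10 in E5 (FDR = 0.0389). Thop1, a peptidase that destroys peptides in the cytosol, was lower in clone E3 (-0.47 ± 0.11, FDR = 0.00815) and 0.80 ± 0.11 higher in clone E5 than in E3 (FDR = 0.000352). Calr and Pdia3 were lower in E5 than in E3, at -1.0 ± 0.15 (FDR = 0.000578) and -0.78 ± 0.11 (FDR = 0.000609). Between the clones 7.14% of the list was thus higher and 14.3% lower, beside 14.7% and 17.2% of all tested genes. The trimming enzyme Erap1, the chaperone Canx and the tapasin relative Tapbpl had log2 fold changes of -0.09, 0.13 and -0.17 in clone E3 and 0.07, -0.06 and -0.02 in clone E5, none past the threshold. Without its replicate 3 the value of Erap1 in clone E3 was 0.03. When replicate 3 of clone E3 was left out, 6 genes of the list were higher and 1 lower in clone E3, with Canx among the higher ones (0.22, FDR = 0.0265), 5 were higher in clone E5, and between the clones 2 were higher and 3 lower. The higher genes were then 42.9%, 35.7% and 14.3% of the list, beside 21.8%, 20.8% and 22.4% of all tested genes, and the lower ones 7.14% in the first and 21.4% in the last comparison, beside 21.5% and 21.7%.

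**Figure D3:**
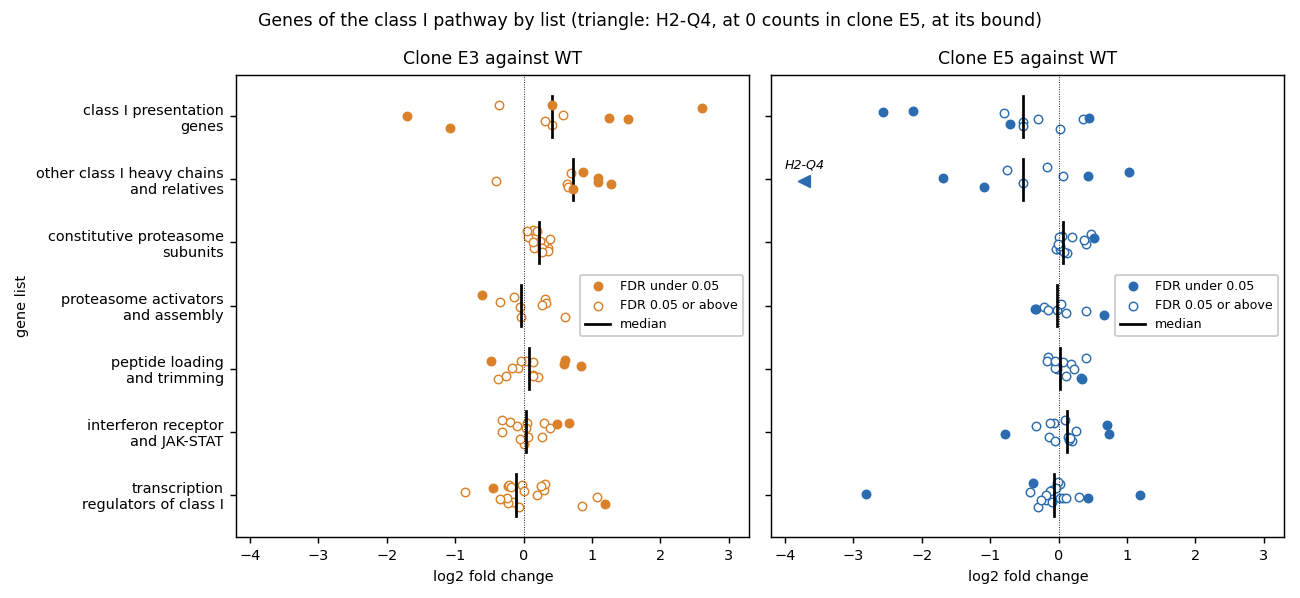
Log2 fold change against WT of the tested genes of the class I pathway, 1 point per gene, in rows by list, for clone E3 (left) and clone E5 (right). Filled points have an FDR under 0.05, black bars are medians, and the triangle is H2-Q4 at its bound of -3.72 in clone E5. The medians of the top rows are 0.42 and 0.72 in clone E3 and both -0.52 in clone E5.

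Of 14 genes of the interferon receptors and the JAK-STAT pathway, 2 were higher in clone E3 (Stat2 and Socs3). In clone E5, 2 were higher (Ifngr2 and Socs1) and 1 lower (Jak2). The higher genes were 14.3% of the list in each clone, beside 15.7% (E3) and 8.96% (E5) of all tested genes. The lower gene was 7.14% of the list, beside 11.7%. Stat2 was at 0.66 ± 0.15 (FDR = 0.00699) and the feedback inhibitor Socs3 at 0.49 ± 0.11 (FDR = 0.0066) in clone E3. In clone E5 the interferon gamma receptor chain Ifngr2 was at 0.70 ± 0.11 (FDR = 0.00133), the inhibitor Socs1 at 0.74 ± 0.17 (FDR = 0.0107) and the receptor kinase Jak2 at -0.78 ± 0.14 (FDR = 0.00251). The level of Jak2 was 45.5, 45.6 and 43.3 CPM in WT and 27.4, 25.7 and 25.1 CPM in clone E5. Irf9, a DNA-binding factor of the interferon response, had log2 fold changes of -0.05 (E3) and 0.15 (E5), neither past the threshold. Between the clones 2 genes of the list were higher in E5 and 5 lower (14.3% and 35.7%, beside 14.7% and 17.2% of all tested genes). With replicate 3 of clone E3 left out, 3 were higher and 2 lower in clone E3, 3 higher and 2 lower in clone E5, and between the clones 5 were higher and 6 lower. These are 21.4% and 14.3% of the list in each clone and 35.7% and 42.9% between them, where 20.8% to 22.4% of all tested genes were called in each direction. The largest differences between the clones with all libraries were those of Jak2 (-0.79 ± 0.14, FDR = 0.00161) and Ifngr2 (0.65 ± 0.11, FDR = 0.00143).

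Of 21 transcription regulators of class I genes, 20 were tested. In clone E3, 1 was higher (Irf1) and 1 lower (Atf1), and in clone E5, 2 were higher (Irf1 and Rel) and 2 lower (Irf8 and Eed). In each direction these are 5% of the tested list in clone E3, beside 15.7% and 14.7% of all tested genes, and 10% in clone E5, beside 8.96% and 11.7%. Irf1, an activator of class I and immunoproteasome genes, was 34.7, 30.1 and 40.2 CPM in clone E3, 17.1, 14.2 and 14.6 CPM in WT and 22.1, 20.3 and 19.6 CPM in clone E5. The 3 groups did not overlap. Irf1 was higher than WT by 1.19 ± 0.13 in E3 (FDR = 0.000116) and by 0.44 ± 0.13 in E5 (FDR = 0.0346), and E5 was below E3 (-0.76 ± 0.13, FDR = 0.00129). Irf8 was at 0.865 to 1.35 CPM in WT and 0.0431 to 0.259 CPM in clone E5 (-2.82 ± 0.44, FDR = 0.00136). The NF-kB subunit Rel was higher in clone E5 at 1.19 ± 0.29 (FDR = 0.0159), Atf1 was lower in clone E3 at -0.45 ± 0.08 (FDR = 0.00186), and the Polycomb subunit Eed was lower in clone E5 at -0.38 ± 0.09 (FDR = 0.0124). The log2 fold changes of Irf2 were 0.19 (E3) and -0.02 (E5), neither past the threshold. Between the clones, 1 regulator was higher in E5 (Atf1) and 2 were lower (Irf1 and Irf8), which is 5% and 10% of the list beside 14.7% and 17.2% of all tested genes. In the fit without replicate 3 of clone E3, 4 were higher and 6 lower in clone E3, 3 higher and 6 lower in clone E5, and 2 higher and 3 lower between the clones. These counts are 10% to 30% of the list, beside 20.8% to 22.4% of all tested genes in that fit. Rel was then higher in clone E3 too (1.08, FDR = 0.00307), as was Irf2 (0.24, FDR = 0.0249). Ciita, the class II counterpart of Nlrc5, had at most 0.0215 CPM in any library and was not tested.

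Levels were ordered per kb of exon within each line. In WT the order from the top was H2-D1 (80.0 CPM), B2m (79.9), Tap2 (9.70), Tapbp (9.52), H2-K1 (5.24), Psmb10 (4.74), Tap1 (1.03), Nlrc5 (0.400), Psmb9 (0.0688) and Psmb8 (0.0461). The ranges of the WT libraries overlapped for H2-D1 and B2m, for Tap2 and Tapbp, for H2-K1 and Psmb10, and for Psmb9 and Psmb8. In clone E3 B2m was the highest at 106 CPM and Tapbp (22.6) stood above Tap2 (12.0), Psmb10 (7.09) and H2-K1 (1.6). In clone E5 the top was B2m (64.7) and H2-D1 (48.7), and H2-K1 (0.886) was below Tap1 (1.05). Exon lengths were those of GENCODE vM39, which may not be the release used for the counts.

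Of the 10 genes, 7 lie on chromosome 17 between Tapbp and H2-D1, in the mouse MHC (chr17:34134873-35486475). The same stretch of 1352 kb held 64 other tested genes. In clone E3, 18 of them were higher than in WT (28.1%, beside 15.7% of all tested genes) and 1 was lower (1.56%, beside 14.7%). In clone E5, 3 were higher (4.69%, beside 8.96%) and 5 lower (7.81%, beside 11.7%). Between the clones, 18 were lower in E5 (28.1%, beside 17.2%), and the log2 fold changes of all 64 ran from -2.74 to 0.43. Without replicate 3 of clone E3, 21 were higher and 7 lower in clone E3 than in WT (32.8% and 10.9%), 6 were higher and 11 lower in clone E5 than in WT (9.38% and 17.2%), and 3 were higher and 19 lower in E5 than in E3 (4.69% and 29.7%). All tested genes had 20.8% to 22.4% in each direction of that fit. The median log2 fold change of these neighbours was 0.25 in clone E3 and 0.03 in clone E5, or 0.16 and 0.04 without that replicate.

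Single neighbours changed by amounts near those of the class I genes. In clone E3 the largest changes were Gm19412 (2.01), which lies antisense to Tapbp, Ddah2 (1.87), the heat shock gene Hspa1b (1.63) and Vwa7 (-1.15), and all had an FDR under 0.05. The class II chaperone subunit H2-DMa, which lies between H2-K1 and Psmb9, was at 0.97 ± 0.25 in clone E3 (FDR = 0.0146). In clone E5 the largest were Gpsm3 (-2.13), Tnxb (-1.44) and Hspa1b (0.83). H2-K1 at -2.56 was below every other tested gene of the stretch in clone E5, and at -1.71 in clone E3 as well.

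**Figure D4:**
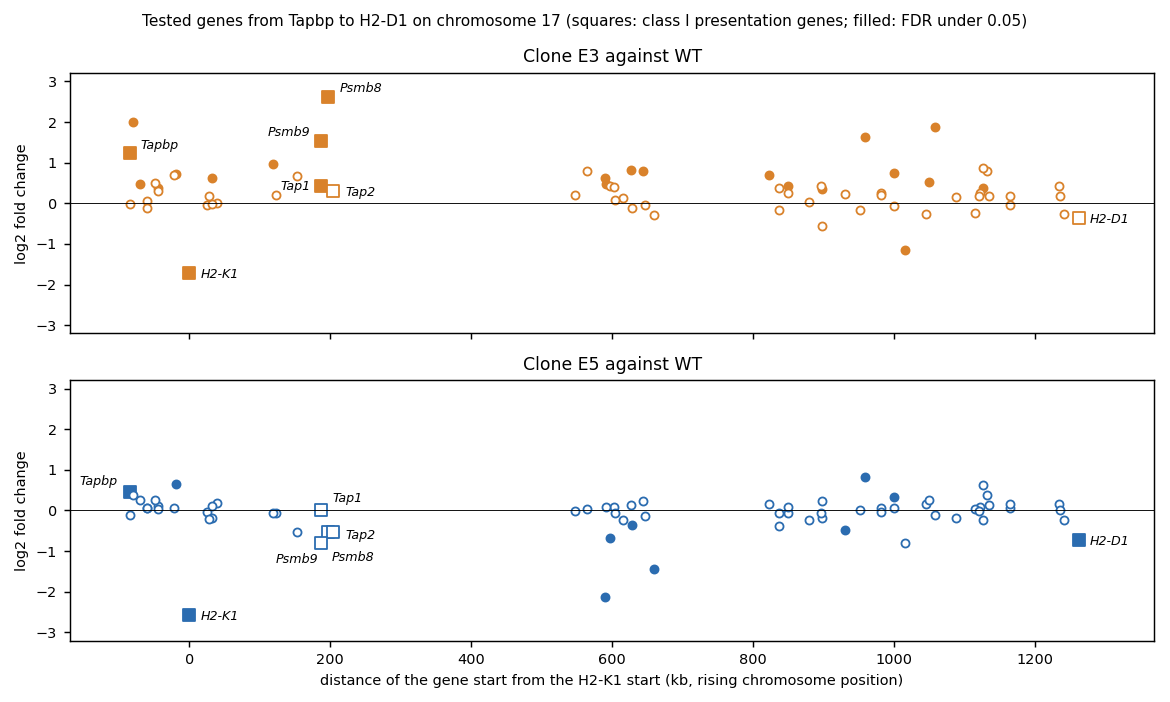
Log2 fold change against WT of the 71 tested genes from Tapbp to H2-D1 on chromosome 17, by distance of each gene's start from the start of H2-K1 in kb, for clone E3 (top) and clone E5 (bottom). Squares are the 7 class I presentation genes there and filled symbols have an FDR under 0.05. H2-K1 is the lowest point in both panels.

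The genes most like the set were sought outside the lists as those whose log2 CPM over the 9 libraries correlated best with the mean standardised log2 CPM of the 10 genes. The mean profile was -0.14 to 0.24 in WT, 0.15 to 1.21 in clone E3 with replicate 3 the highest, and -0.73 to -0.70 in clone E5. Among 10341 candidates the 8 most alike were Copz2 (r = 0.994), Spcs2 (0.986), Ctsd (0.985), Tmed2 (0.982), Grik5 (0.981), Nmi (0.981), Manf (0.979) and Selenos (0.978). The 9 points come from 3 lines, share replicate 3 of clone E3 as the highest point and are not independent, so no p-value was computed. Of the 10 genes themselves, B2m (0.978), Tap2 (0.967) and Psmb9 (0.947) followed the mean profile most closely, and Nlrc5 (0.302), Psmb10 (0.333) and H2-K1 (0.395) least. Each of the 10 is part of that mean, so these values cannot be set beside those of the genes outside it.

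The lines were checked against markers of LLC cells and of other cell types. Vim, the mesenchymal filament gene, was at 4131 to 6833 CPM, and Epcam, Nkx2-1, Sftpc and Scgb1a1, markers of epithelium or lung, were at 0 in every library. The list of 8 epithelial and lung genes summed to 463 to 470 CPM in WT. It summed to 146 to 222 CPM in clone E3 and 919 to 979 CPM in clone E5, with Krt18 the most abundant. Of 5 mesenchymal genes, Vim was higher in clone E3 (0.40 ± 0.12, FDR = 0.0301) and in clone E5 (0.66 ± 0.12, FDR = 0.00335), and the transcription factor gene Snai2 was lower in clone E3 (-0.78 ± 0.11, FDR = 0.000706). In clone E3 that is 20% of the list in each direction, beside 15.7% higher and 14.7% lower of all tested genes. In clone E5 it is 20% higher, beside 8.96%. Of the 5, 1 was higher and 2 lower in clone E3, and 2 were higher and 1 lower in clone E5, when replicate 3 of clone E3 was left out, 20% to 40% of the list beside 20.8% to 21.8% of all tested genes in each direction and clone. The 3 tested epithelial genes all differed from WT in both clones, 1 higher and 2 lower in E3, where 15.7% and 14.7% of all tested genes did so, and 3 higher in E5 (8.96%). The keratin genes were lower in clone E3, with Krt8 at -2.33 ± 0.13 (FDR = 2.31e-06) and Krt18 at -1.08 ± 0.15 (FDR = 0.000568), and higher in clone E5, at 0.95 ± 0.12 (FDR = 0.000375) and 1.08 ± 0.15 (FDR = 0.000672). Foxa2 was higher in both, at 0.77 ± 0.13 in E3 (FDR = 0.0016) and 0.81 ± 0.13 in E5 (FDR = 0.00147).

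Of 16 immune cell markers, 5 were at 0 in every library, among them Cd3e, Cd8a and Nkg7, and the leukocyte gene Ptprc reached at most 0.0423 CPM. The summed level was 6.56 to 8.39 CPM in WT, 6.0 to 6.98 CPM in clone E3 and 8.30 to 9.78 CPM in clone E5, with Itgax the most abundant. Of the 4 tested markers, Lyz2 was lower in clone E5 than in WT (-3.49 ± 0.68, FDR = 0.00483), from at most 0.400 CPM in WT. That is 25% of the tested markers, beside 11.7% of all tested genes. Between the clones 1 marker was higher and 1 lower in E5 (25% each, beside 14.7% and 17.2%). Itgax, without replicate 3 of clone E3, was higher in clone E5 than in WT (0.48, FDR = 0.0223). In that fit 25% of the tested markers were higher and 25% lower, beside 20.8% and 21.2% of all tested genes. The 6 endothelial markers summed to 0.185 to 0.480 CPM, with Vwf the most abundant and Cldn5 at 0, and none was tested. Of 11 class II genes, 2 were tested, H2-DMa and H2-DMb1. H2-DMa was higher in clone E3 than in WT, as given above, and both were lower in E5 than in E3, at -1.02 ± 0.25 (FDR = 0.0105) and -1.21 ± 0.35 (FDR = 0.0225). Of the 2 tested genes that is 50% higher in clone E3, beside 15.7% of all tested genes. Between the clones it is 100% lower, beside 17.2%. Class II genes summed to 2.28 to 3.17 CPM in WT, 3.06 to 6.46 CPM in clone E3 and 2.26 to 2.40 CPM in clone E5, and H2-Aa had no counts.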

How the data were processed

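RNA was sequenced from 9 libraries of LLC cells. The authors ran FastQC and Trimmomatic, mapped reads with STAR against GRCm39, and deposited raw counts per gene. The library kit keeps strand. The counting tool, how it treated strand, and the annotation release are not given in the sources used here.

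Genes were filtered with filterByExpr (minimum count 10, total 15). Counts were TMM-scaled and fitted in edgeR (version 4.0.16, R 4.3.3) by group, with all libraries in 1 model. The contrasts of each clone with WT and of E5 with E3 used the quasi-likelihood test and Benjamini-Hochberg adjustment, and genes were counted at an FDR under 0.05. The SE is the size of the log2 fold change divided by the root of F. The procedure was tested on simulated data. Alternatives were DESeq2 (version 1.42.0, on the same filtered genes), its size factors, upper-quartile scaling, no filter, 2 groups alone, a replicate block, summed heavy chains and each library left out. Library totals of 44257404 to 55095219 keep counting error small above a few CPM.

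The genes and lists were chosen with earlier results of these data known. Up to 6 genes per list and comparison past the threshold were named by size of change, plus genes named for their role, and the 8 genes most like the set among those with an average log2 CPM above 1.

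The promoter search was settled after the values were seen. A first search used GENCODE starts, which for H2-D1 and B2m lie upstream, and was replaced by RefSeq starts. The NF-kB letters were then shortened from 11 to the 9 given.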

Additional observations from a re-analysis of the deposited data

Results flagged for a closer look

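The clones' differences from the shared WT libraries were unequal for 7 of the 10 genes, by edgeR's test of clone E5 against clone E3 (17.2% of all tested genes were lower in E5). The log2 differences were -0.85 for H2-K1, -0.72 for B2m, -0.83 for Tap2, -0.80 for Tapbp, -3.14 for Psmb8, -2.33 for Psmb9 and -1.05 for Nlrc5. The call of Nlrc5 was lost in 9 of 15 alternatives. That of H2-K1 was lost in 3 of 15. The sum of all heavy chain rows is mostly H2-D1 and cannot show whether it held. Psmb8 and Psmb9 passed the filter on low counts through clone E3 alone, so their values are a description. For each of the 7 but Nlrc5, all libraries of clone E5 lay below all libraries of clone E3. The 7 were picked by that test, so this separation describes them and is not further support. Each clone is 1 line, so the edit and other differences between the lines cannot be told apart.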

How the results depend on the processing

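The number of differing genes among the 10 was 6 in clone E3 against WT (4 to 8 with 1 library left out), 4 in clone E5 against WT (3 to 7) and 7 between the clones (5 to 8). DESeq2 gave 8, 5 and 8. For clone E5 against WT it was 7 of 8 with only the 2 groups compared, where Psmb8 and Psmb9 did not pass the filter, and 7 with replicate 3 of clone E3 left out, and in both cases that library does not enter the estimate of spread. With the replicate number as a block the numbers were 5, 3 and 6. Over all tested genes the numbers in these comparisons were 4445, 3012 and 4661. They were 4991, 3684 and 5222 with DESeq2 and 3664, 2309 and 3887 with the block. Libraries with the same number did not deviate together (correlations from -0.17 to 0.05), so the numbers do not pair. Over all tested genes the number for clone E5 against WT was 3012, 6596 with 2 groups alone and 1767 to 6246 with 1 library left out, and for clone E3 against WT it was 4445, and 2875 to 6423. Upper-quartile scaling moved the share of higher calls between the clones from 46.1% to 35.8%, and in clone E3 against WT from 51.7% to 60.9%. With 1 library left out, the log2 fold change of Tap1 in clone E5 against WT ran from -0.036 to 0.12, below 0 without WT replicate 2, WT replicate 3 or replicate 1 of clone E5. That of Psmb10 between the clones ran from -0.43 to 0.077, above 0 without replicate 3 of clone E3. Neither passed the threshold in any of these, and the cause was not tested. Low counts limit Psmb8 and Psmb9.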
